A study of Macaca fascicularis with 3 samples.

Results

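The miR-29 family was followed in 3 untreated cynomolgus monkeys (Macaca fascicularis). The tissue was kidney cortex, the outer zone with the filtering glomeruli and much of the tubular epithelium. Members were taken by name, as every listed miRNA with the stem miR-29a, miR-29b or miR-29c and any arm. This gave 6 of the 432 mature miRNAs counted by small RNA sequencing: mfa-miR-29a-3p, mfa-miR-29b-3p, mfa-miR-29c-3p, mfa-miR-29b-1-5p, mfa-miR-29b-2-5p and mfa-miR-29c-5p, named below without the species prefix. The authors' deposited table pairs each of the 6 with the human miRNA of the same name. The animals were naïve and 2 to 3 years old, with 1 library each, and they form a single group, so the data allow comparisons between miRNAs and between animals but none between conditions. The labels name no batch, sex or other property by which the animals differ, and spread between animals cannot be told apart from spread between library preparations.

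The miR-29 family is best known as a brake on fibrosis. Its 3p strands share a seed, the short stretch near the 5′ end that pairs with target messages, and these targets include fibrillar and basement membrane collagens, fibrillin and elastin. Transforming growth factor beta lowers the family in renal cells, and the loss accompanies matrix deposition in injured kidneys. The genes lie in a pair of clusters, miR-29a with miR-29b-1 and miR-29c with miR-29b-2. The miR-29b-1 and miR-29b-2 hairpins release the same 3p strand, so miR-29b-3p sums both, whereas their 5p strands differ and can be counted separately. The 3p strand is the guide that is loaded into the silencing complex and the 5p strand is the passenger, which is mostly degraded.

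Counts of listed miRNAs summed to 4305977 for animal 1, 4707892 for animal 2 and 3957188 for animal 3. A floor of 3 counts corresponded to between 0.637 and 0.758 counts per 1000000 (CPM, computed over those totals). The labelled tissue was checked against the kidney miRNAs miR-204, miR-194, miR-192 and miR-215, whose summed level ranged from 53073 to 61982 CPM. Most of this sum was miR-204-5p, with a mean of 48124 CPM. Means were 4862 CPM for miR-194-5p, 4292 for miR-192-5p and only 18.9 for miR-215-5p. The liver marker miR-122a-5p had between 4.04 and 8.82 CPM. Vascular miRNAs (miR-126, miR-143, miR-145) summed to between 71708 and 85190 CPM and epithelial ones (the miR-200 group) to between 16281 and 20903. The epithelial sum was almost wholly miR-200a-3p and miR-429-3p, with means of 10198 and 9011 CPM. miR-200c-3p had a mean of 3.29 CPM, and the sum held no strand of miR-200b or miR-141. Erythroid miRNAs summed to between 4374 and 5765 CPM and leucocyte ones to between 1518 and 1727. Muscle ones summed to between 363 and 562 CPM and neuronal ones to between 107 and 131. In a piece of tissue, fewer cells of a type and less RNA per cell cannot be told apart. The library of animal 3 stood apart: edgeR's biological coefficient of variation over miRNAs with a mean of 10 or more counts was 0.438 with all animals, 0.494 without animal 1, 0.530 without animal 2 and 0.259 without animal 3.

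The miR-29 family was one of the most abundant in the cortex. It took 325826 counts in animal 1, 388653 in animal 2 and 353987 in animal 3. This was 7.57% of the library of animal 1 (Wilson 95% interval 7.54 to 7.59). For animal 2 it was 8.26% (8.23 to 8.28) and for animal 3 it was 8.95% (8.92 to 8.97). The mean was 8.26% ± 0.689 (SD, n = 3), and the intervals, which cover counting error only, did not overlap. This is not particular to the family. Of the 391 miRNAs with a mean count of 10 or more, 80.6% also differed between libraries beyond counting error (chi-square test given below). When all names were grouped by the number they carry, giving 235 groups, miR-29 was in rank 4 on average, behind miR-30 (15.9% ± 2.34), miR-10 (12.7% ± 1.03) and let-7 (10.5% ± 2.99). It was in rank 4 in animals 1 and 2 and in rank 3 in animal 3, where let-7 took 7.58%.

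Of the guide strands, miR-29b-3p was the most abundant. It had 156693, 200507 and 161485 counts in animals 1, 2 and 3, or 36390, 42590 and 40808 CPM, with a mean of 39929 CPM ± 3192 (SD, n = 3) and rank 7 of the 432. Animal 1 was the lowest, and the value of animal 2 was slightly above that of animal 3.

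miR-29c-3p followed with 107826, 129344 and 131385 counts. Its levels were 25041, 27474 and 33202 CPM in animals 1, 2 and 3, a mean of 28572 CPM ± 4190 (SD, n = 3) and rank 12. Here animals 1 and 2 lay close together and animal 3 was the highest.

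miR-29a-3p had 60794, 57837 and 60487 counts. Its levels were 14118, 12285 and 15285 CPM in animals 1, 2 and 3, a mean of 13896 CPM ± 1512 (SD, n = 3) and rank 21. Animal 2, the highest for miR-29b-3p, was the lowest for miR-29a-3p.

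The passenger strands were far lower. miR-29b-2-5p had 441, 842 and 587 counts, or 102, 179 and 148 CPM, with a mean of 143.2 CPM ± 38.5 (SD, n = 3) and rank 165. miR-29b-1-5p had 71, 118 and 32 counts, or 16.5, 25.1 and 8.09 CPM, with a mean of 16.5 CPM ± 8.49 and rank 275. Animal 3 lay between the others for the first of these strands and was the lowest for the second.

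miR-29c-5p had 1, 5 and 11 counts in animals 1, 2 and 3, or 0.232, 1.06 and 2.78 CPM (Wilson 95% confidence intervals 0.0410 to 1.32, 0.454 to 2.49 and 1.55 to 4.98). Its sum of 17 counts lies just above the authors' minimum of 15 reads for listing a miRNA, and its single count in animal 1 lies under the floor. The other 5 members reached 10 counts in every library, as did 81.9% of all listed miRNAs. The 5p strand of miR-29a was not among the listed miRNAs, so the arms of that hairpin could not be compared.

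**Figure D1:**
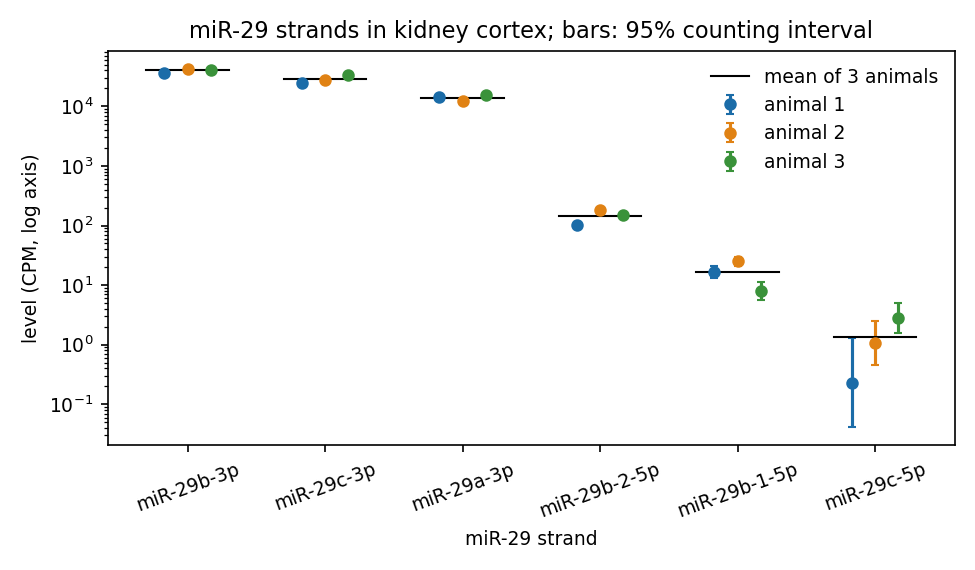
Level of each miR-29 strand (CPM, log axis) in animals 1, 2 and 3 (points, with 95% Wilson counting intervals) and the mean of the 3 animals (line). The 3 guide strands lie between 12285 and 42590 CPM in every animal, and the highest passenger value is 179 CPM.

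The first comparison concerned the order of the guide strands within the family, which needs no scaling between libraries. In all 3 animals miR-29b-3p exceeded miR-29c-3p, which in turn exceeded miR-29a-3p. miR-29b-3p stood 1.45-fold, 1.55-fold and 1.23-fold above miR-29c-3p in animals 1, 2 and 3, a mean log2 ratio of 0.49 ± 0.17 (SD, n = 3) for which sign flips over the animals (an exact two-sided permutation test) gave p = 0.25, the smallest that 3 animals allow. The lead of miR-29b-3p was smallest in animal 3. miR-29c-3p stood 1.77-fold, 2.24-fold and 2.17-fold above miR-29a-3p, a mean log2 ratio of 1.04 ± 0.18 with the same exact p of 0.25. Since miR-29b-3p adds up the output of both of its hairpins, its lead does not rank single hairpins. The mature miR-29 strands resemble each other, and how reads fitting several names were counted is not given in the sources used here, so the split among members is less certain than their sum.

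The makeup of the family differed between animals by more than counting error. By the chi-square test given below, so did the levels of 100% of the 24 miRNAs with a mean of at least 10000 CPM. miR-29b-3p supplied 48.1% of the family's counts in animal 1 (Wilson 95% interval 47.9 to 48.3). Its share was 51.6% in animal 2 (51.4 to 51.7), and animal 3 had 45.6% (45.5 to 45.8). miR-29c-3p supplied 33.1% (32.9 to 33.3) and 33.3% (33.1 to 33.4) in animals 1 and 2, whose intervals overlap, and 37.1% (37.0 to 37.3) in animal 3. miR-29a-3p supplied 18.7%, 14.9% and 17.1%. In animal 3 the share of miR-29c-3p was thus the highest of the 3 animals and that of miR-29b-3p the lowest. The 3p strands together made up 99.8% ± 0.0476 (SD, n = 3) of the family.

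**Figure D2:**
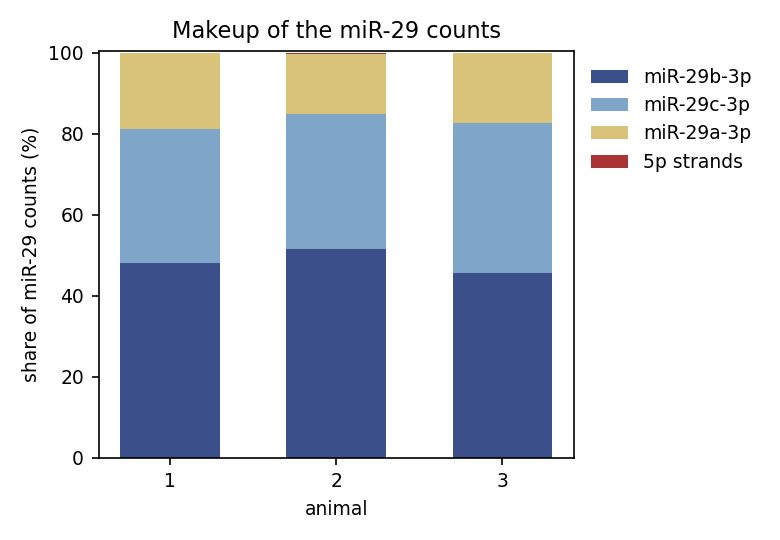
Share of the miR-29 counts (%) taken by each guide strand and by the 5p strands together, 1 bar per animal. miR-29b-3p is the largest part in each animal, from 45.6% to 51.6%, and the 5p strands, at most 0.248%, are barely visible.

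The second comparison asked how lopsided the hairpins are in the arm they keep. For miR-29b the 5p strands of both hairpins together made up 0.326% of the hairpins' counts in animal 1 (Wilson 95% interval 0.299 to 0.355). The figure was 0.477% for animal 2 (0.447 to 0.508) and 0.382% for animal 3 (0.353 to 0.413). The log2 ratio of 3p over 5p, on counts with 1 added, was 7.99 ± 0.28 (SD, n = 3; exact sign-flip permutation p = 0.25). For miR-29c the 5p strand made up 0.000927% in animal 1 (0.000164 to 0.00525), and the figure was 0.00387% for animal 2 (0.00165 to 0.00905) and 0.00837% for animal 3 (0.00467 to 0.0150). The corresponding log2 ratio was 14.51 ± 1.15 (SD, n = 3; exact sign-flip permutation p = 0.25), a value that rests on few passenger counts. The 3p arm dominated both in all animals.

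Hairpins were taken if both arms were listed under names alike except for the arm, with a mean of 10 or more counts over both. They numbered 123 together with the pooled miR-29b hairpins, and the median size of the mean log2 arm ratio was 4.29. The 3p arm was the larger in all 3 animals for 50 of these 123, miR-29b and miR-29c among them. miR-29c was the most lopsided of these 123 on average, ahead of miR-30d with -12.89 (toward 5p) and miR-429 with 12.37. It was in rank 1 in animals 1 and 2 and in rank 3 in animal 3, where miR-10a led. miR-29b ranked 25 of the 123, but only its numbered hairpins were pooled. Others with numbered minor arms, such as miR-30c and miR-26a, failed the name match and were left out. Mean CPM was 48682 for miR-30c-5p against 24.0 for miR-30c-2-3p and 3.18 for miR-30c-1-3p. It was 46727 for miR-26a-5p against 22.1 for miR-26a-2-3p and 11.3 for miR-26a-1-3p. Both gaps are wider than that of miR-29b, so its rank holds only within the 123. Because miRNAs under 15 reads are not in the table, hairpins whose minor arm was rarer still could not enter this order.

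**Figure D3:**
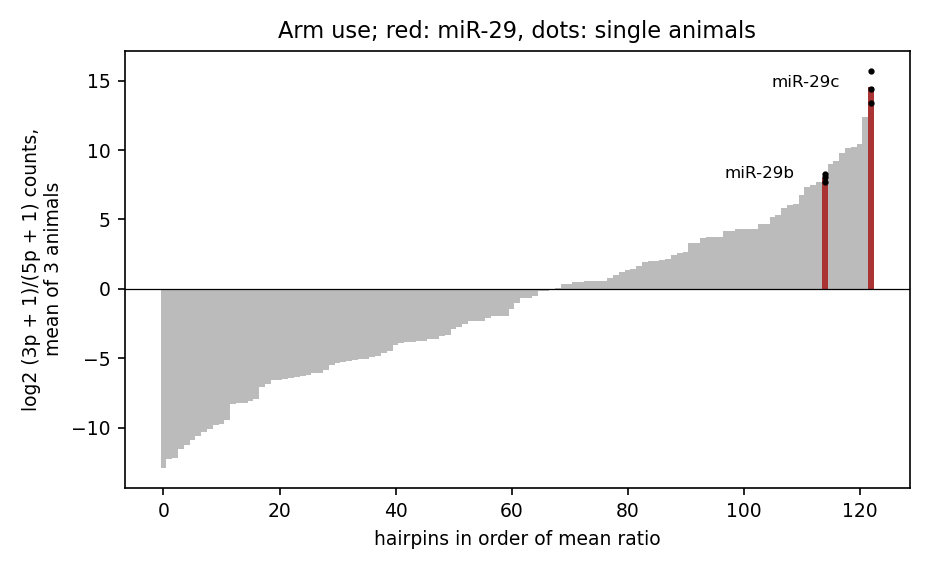
Mean log2 ratio of 3p over 5p counts (1 added to each) for 123 hairpins in increasing order, with the miR-29b and miR-29c hairpins in red and their single animals as dots. miR-29c is the last bar, at 14.51, and miR-29b stands at 7.99.

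Unlike the shared guide, the passengers tell the miR-29b hairpins apart. miR-29b-2-5p supplied 441 of 512 passenger counts in animal 1, or 86.1% (Wilson 95% interval 82.9 to 88.9). It supplied 842 of 960, or 87.7% (85.5 to 89.6), in animal 2, and 587 of 619, or 94.8% (92.8 to 96.3), in animal 3. Animals 1 and 2 overlapped, and animal 3 lay above both. The mean log2 ratio of miR-29b-2-5p over miR-29b-1-5p was 3.20 ± 0.83 (SD, n = 3; exact sign-flip permutation p = 0.25), with 6.14-fold, 7.08-fold and 17.8-fold in animals 1, 2 and 3. This comparison was added after the values were seen. A passenger's count depends on how much of it escapes degradation as well as on its hairpin, so the shares are shares of passenger counts and not of hairpins.

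The animals were then ranked by cluster partners. miR-29b-1-5p was lowest in animal 3, while miR-29a-3p, from the same cluster, was highest there. miR-29b-2-5p and miR-29c-3p were both lowest in animal 1, but the first was highest in animal 2 and the second in animal 3. For miR-29b-2-5p, animals 2 and 3 differed by 1.08-fold, which the chi-square test described next did not call (adjusted p = 0.216 without animal 1), so the order of these animals is not resolved for this strand.

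The third comparison was between animals. Levels were scaled with trimmed mean of M values (TMM) factors, and a chi-square test of homogeneity set the 3 libraries against counting error, with Benjamini-Hochberg adjustment over the 391 miRNAs whose mean count was 10 or more. It called 5 of the 5 members that passed this minimum; miR-29c-5p did not pass. The test called 80.6% of all 391 miRNAs, and 100% of the 24 with a mean of at least 10000 CPM, so the members' count is not a result about them. The statistic was 2846 for miR-29b-3p, 9203 for miR-29c-3p and 3256 for miR-29a-3p on 2 degrees of freedom, with adjusted p-values of 0 to machine precision. The adjusted p was 1.8e-18 for miR-29b-2-5p and 7.7e-07 for miR-29b-1-5p. Leaving out animal 1 ended the call for miR-29b-2-5p, whose adjusted p was then 0.216.

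By size, the guide strands differed less than the passengers, which are far less abundant and rest on far fewer counts. The highest animal exceeded the lowest by 1.21-fold for miR-29b-3p, 1.43-fold for miR-29c-3p and 1.39-fold for miR-29a-3p on TMM-scaled CPM, against a median of 1.37-fold over the 24 miRNAs with at least 10000 CPM and 1.71-fold over all 391. In increasing order of span among those 24, miR-29b-3p was in place 5, miR-29a-3p in place 14 and miR-29c-3p in place 15. On TMM-scaled CPM, animal 3 was the highest for all 3 guides, but with library totals alone animal 2 was the highest for miR-29b-3p. Without animal 3, miR-29c-3p spanned 1.05-fold, miR-29b-3p 1.12-fold and miR-29a-3p 1.196-fold.

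The passengers spanned more, 1.68-fold for miR-29b-2-5p and 2.77-fold for miR-29b-1-5p. Of all 391 miRNAs, 49.1% spanned less than miR-29b-2-5p and 80.3% less than miR-29b-1-5p. Passengers were not set against miRNAs of like abundance. miR-29b-1-5p was the only member beyond 2-fold among the 5 tested, against 39.9% of all miRNAs and 16.7% of the 24 above 10000 CPM. It spanned 1.46-fold without animal 3 and 1.80-fold without animal 2, and miR-29b-2-5p spanned 1.08-fold without animal 1. Relative to the mean of the other animals on the log2 scale, animal 3 lay at -1.11 for miR-29b-1-5p, and 16.9% of all miRNAs lay more than 2-fold low in this library. The corresponding differences were 0.26 for miR-29b-2-5p, 0.18 for miR-29b-3p, 0.47 for miR-29c-3p and 0.35 for miR-29a-3p. The part of this library's deviation in the low miR-29b-1-5p was not tested.

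**Figure D4:**
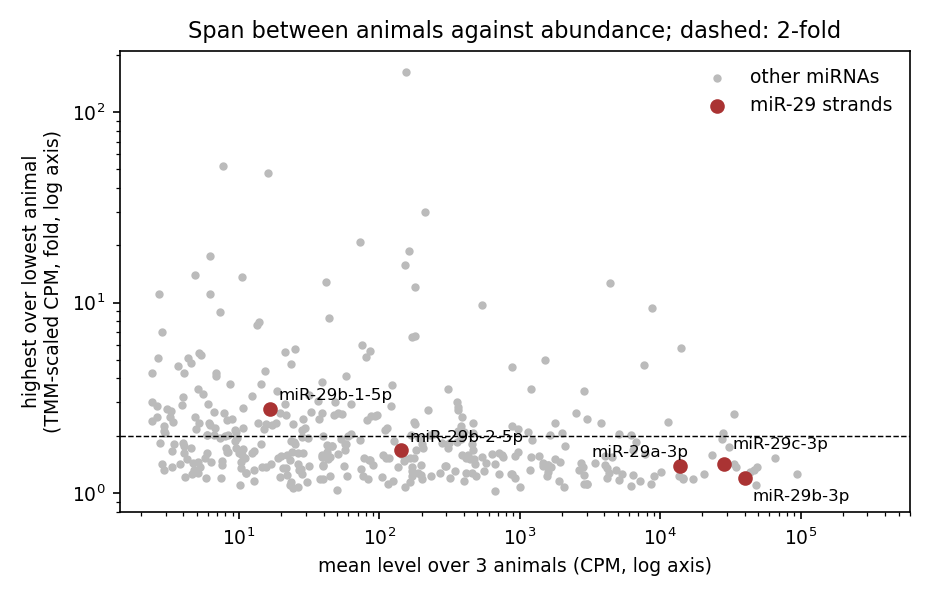
Highest over lowest animal (fold on TMM-scaled CPM, log axis) against mean level (CPM, log axis) for miRNAs whose mean count was 10 or more and with no animal at 0, with the 5 tested miR-29 strands in red and 2-fold dashed. The guides lie at the abundant end, between 1.21-fold and 1.43-fold, and miR-29b-1-5p alone of the red points is above 2-fold, at 2.77.

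The family was then set beside other abundant families and beside miRNAs described as promoting fibrosis, by summed counts within each animal. The miR-30 5p strands, also described as antifibrotic, outweighed it in all 3 animals, and the family stood at 0.544, 0.552 and 0.488 of their level (mean log2 ratio -0.92 ± 0.10, SD, n = 3). The miR-26 family was exceeded 1.28-fold, 1.52-fold and 2.11-fold (mean log2 ratio 0.68 ± 0.36), the largest lead being in animal 3. miR-21, which rises in injured kidney and promotes fibrosis, was exceeded 5.08-fold, 5.83-fold and 5.93-fold (2.49 ± 0.12). The profibrotic list of miR-21, miR-199a, miR-214, miR-34a, miR-433 and miR-382 was exceeded 2.77-fold, 2.91-fold and 3.38-fold (1.59 ± 0.15). Each of these 4 comparisons had an exact two-sided permutation p of 0.25, the smallest possible, and an adjusted p of 0.25. Counts of different miRNAs also carry differences in how well each sequence is ligated and amplified, so a ratio of counts is not a ratio of molecules.

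The profibrotic list had 11 names, and the chi-square test called 8 of 11 different between libraries, with a median span of 1.25-fold. Over all 391 miRNAs it called 80.6% and the median span was 1.71-fold. Its most abundant member was miR-21-5p, at 14796, 14120 and 15051 CPM in animals 1, 2 and 3. This is close to miR-29a-3p alone, which exceeded it only in animal 3. miR-199a-3p, a stromal miRNA, had a mean of 7169 CPM ± 922 (SD, n = 3). Next came the entry miR-199a, whose counts equal those of miR-199a-5p, with 3018 CPM ± 50.9. miR-34a-5p, a target of p53, had 1585 CPM ± 351, and miR-214-3p 483 CPM ± 91.5. The passenger miR-21-3p spanned 4.13-fold and miR-433-3p 11.1-fold, both lowest in animal 3, and these were the list's members beyond 2-fold, where 39.9% of all miRNAs lay.

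The list of other antifibrotic miRNAs had 24 names, of which 22 had enough counts for the test, and 19 of 22 were called, against 80.6% of all miRNAs. Their median span was 1.43-fold, the same to this precision as that of the 5 tested miR-29 strands, and 6 of the 22 spanned more than 2-fold, against 39.9% of all miRNAs. Together they took 22.1%, 22.7% and 24.4% of the counts in animals 1, 2 and 3. miR-30a-5p (65955 CPM ± 13180, SD, n = 3), miR-30c-5p (48682 ± 5121) and miR-26a-5p (46727 ± 8237) each had a higher mean than miR-29b-3p. The leading epithelial members were miR-200a-3p (10198 ± 1688) and miR-429-3p (9011 ± 1435), which restrain the loss of epithelial character. Both had lower means than miR-29a-3p.

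The order around each guide was only partly resolved. Each was compared with the 3 miRNAs next above and the 3 next below it by mean CPM, and 5 of these 18 pairs kept 1 order in all 3 animals. These neighbours were chosen by the same levels that were then compared. No rate was computed for neighbours of other miRNAs, so the count of pairs is not a result about the guides. miR-29b-3p lay below miR-204-5p and above miR-10a-5p in every animal. It did not keep its order against miR-26a-5p, miR-126, let-7f-5p or let-7a-5p. miR-29c-3p lay below miR-10a-5p and above miR-125a-5p in every animal, and its order against let-7a-5p, miR-30d-5p, miR-145-5p and miR-125b-5p changed. miR-29a-3p lay above miR-200a-3p in every animal, and against miR-101-3p, miR-21-5p, miR-23b-3p, miR-27b-3p and miR-424-5p its order changed. Each pair that kept its order had an exact sign-flip permutation p of 0.25 (adjusted over the 18 pairs 0.818).

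Finally, each guide was matched by the distance between profiles over the 3 libraries, taking log2(TMM-scaled CPM + 1) minus its mean over animals, among the 179 miRNAs with a mean of at least 100 CPM. Nearest to miR-29b-3p were miR-185-5p (distance 0.0099, with 845, 980 and 947 CPM), miR-19b, miR-154-5p, miR-301a-3p and miR-17-5p. miR-92a-3p (distance 0.032, with 1400, 1552 and 1819 CPM), miR-361-3p, miR-224-5p, miR-20b-5p and miR-30a-5p were nearest to miR-29c-3p. For miR-29a-3p they were miR-194-5p (distance 0.054, with 4898, 4437 and 5250 CPM), miR-151-5p, miR-10a-5p, miR-30c-5p and miR-22. No guide had another miR-29 guide among its 5 nearest, but 5 of 179 is a small part, so this absence is not a result about the family. miR-29c-3p was in place 37 and miR-29a-3p in place 52 from miR-29b-3p, at distances of 0.24 and 0.33. Both were under the median distance from miR-29b-3p, which was 0.47. From miR-29c-3p, miR-29a-3p was in place 39, at a distance of 0.26. With 3 libraries such profiles have few degrees of freedom, and near matches describe these libraries only.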

How the data were processed

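Reads were mapped by the authors to M. fascicularis miRNAs with 0 mismatches, per the file headers, and they deposited a raw read count for each of 432 miRNAs having at least 15 reads (summed over libraries, as the values show). Aligner, trimming and reference release are not given in the sources used here. Per the labels' protocols, total RNA was enriched for small RNA before library preparation; no molecular identifiers are described, so intervals and floors cover counting error only. The authors' deposited normalized signal, made with edgeR per the file headers, equals the count divided by the TMM factor without scaling for library size, so shares and ratios within a library are the same in it. Further columns of per-sample values numbered 0.

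CPM, shares and Wilson intervals were computed from raw counts. TMM factors over all listed miRNAs (edgeR 4.0.16, R 4.3.3) were 1.01, 1.05 and 0.940. The chi-square test (threshold 0.05) compares libraries, not conditions. Sign-flip tests used log2 ratios of counts with 1 added. In list sums, 1 name of each pair with identical counts was kept. Dispersion was estimated with edgeR under an intercept-only design. The miRNAs named are all members, list members with a mean of at least 1 CPM (the lists' leading and most variable ones in the text), the 3 neighbours on each side in rank and the 5 nearest profiles. Cell type lists were those named, with miR-144, miR-451 and miR-486 for erythroid cells, miR-142, miR-150 and miR-223 for leucocytes, miR-206, miR-1 and miR-133a or miR-133b for muscle, and miR-9 and miR-124 for neurons (listed as miR-124a, as miR-122 is as miR-122a). Members and lists were chosen with earlier results of these data known. Mature sequences were not used here.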

Additional observations from a re-analysis of the deposited data

How the results depend on the processing

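Most alternatives could not have changed the results they were run on. The authors' signal divides each library by a constant, so its 2 values for the family's share and for the ratio of miR-29b-3p over miR-29c-3p were fixed beforehand. Leaving out 1 of 3 animals cannot reverse a ratio that has 1 sign in all of them, nor move a mean share by its SD, which covers 24 further values, and p cannot go below 0.5 with 2 animals. The family's share ranged from 7.91% to 8.60% when an animal was left out, and the log2 ratio of miR-29b-3p over miR-29c-3p from 0.42 to 0.59. The members called numbered from 4 to 6 over all settings. There were 4 without animal 1, where the call for miR-29b-2-5p was lost. A mean count of at least 100 also gave 4, because miR-29b-1-5p (mean count 73.7) was then not tested. Having no filter on low counts gave 6, which adds miR-29c-5p. DESeq2 size factors and library totals each gave 5. The share of all miRNAs called is known for the main setting only (80.6%), so these counts are not results about the members. The spans of members between animals, recalculated by settings chosen after seeing the data, depended on the scaling, with 1.17-fold by totals and 1.23-fold by DESeq2 size factors for miR-29b-3p, 1.33-fold and 1.45-fold for miR-29c-3p, and 1.24-fold and 1.46-fold for miR-29a-3p. Depth limits miR-29c-5p, with 1 to 11 counts, and to a lesser degree miR-29b-1-5p. No paired analysis was possible because all 3 libraries belong to 1 group.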
